A study of Mus musculus with 12 samples.

Results

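The 10 genes described here encode the transcription factors of the AP-1 group together with ATF3 and EGR1. They were chosen by gene symbol, with no threshold on a measured value but with earlier results of these data known: the FOS genes Fos, Fosb, Fosl1 and Fosl2, the JUN genes Jun, Junb and Jund, and Batf, Atf3 and Egr1. All 10 were found among the 55335 genes of the expression table, and all 10 were among the 12622 genes that passed the filter of at least 1 FPKM (fragments normalised for transcript length and library size) in at least 3 of 12 libraries. Fosb passed only through its LPS+ATP libraries. RNA sequencing was carried out on bone marrow-derived macrophages (BMDMs), with 3 libraries in each of 4 groups: wild-type and Nlrp3-/- cells, each either left as control or given LPS+ATP. LPS, a cell wall component of Gram-negative bacteria, and ATP, the ligand of the P2X7 receptor, are given together to activate the NLRP3 inflammasome. Per the labels, stimulated cells received LPS for 4 h and then ATP for 30 min, whereas the methods of the study give 12 h and 2 h. The methods describe C57BL/6 mice aged 8 weeks, whose marrow was cultured for 7 days with M-CSF, with the adherent cells taken as BMDMs. The Nlrp3-/- mice lacked the gene in every cell type, so its absence was not limited to macrophages.

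AP-1 is a dimer of basic leucine zipper proteins. JUN proteins can pair with each other or with FOS proteins, FOS proteins need a JUN partner to bind DNA, and BATF pairs with JUN proteins but lacks the activation domains of FOS. Fos, Fosb, Egr1 and Atf3 belong to the immediate early and stress genes, whose transcription starts within minutes of a signal through MAP kinases and the serum response factor, and in macrophages they are induced by LPS. FOSL1 accumulates later and more stably, and JUND is present in most resting cells. ATF3 is mostly a repressor and is known to dampen inflammatory gene expression after LPS, and EGR1 is a zinc finger factor that binds GC-rich sites.

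The promoters of the 3 FOS genes in which a motif was found are shown because each of these genes was called between the genotypes in at least 1 treatment. Windows from 250 bases before to 50 bases after the RefSeq start (GRCm38.p6) were searched for 8 of the 10 genes, all but Fosl1 and Egr1. On both strands, 5 motifs were searched: the AP-1 site TRE (TGANTCA), the cAMP response element CRE (TGACGTCA), the EGR site (GCGNGGGCG), the CArG box of the serum response factor and the NF-kB site. Capitals mark the matches, and all sequences read 5′ to 3′ on the strand of the gene. Fos lies at chr12:85473640-85473939 on the plus strand, Fosb at chr7:19309996-19310295 on the minus strand and Fosl2 at chr5:32136222-32136521 on the plus strand.
Fos: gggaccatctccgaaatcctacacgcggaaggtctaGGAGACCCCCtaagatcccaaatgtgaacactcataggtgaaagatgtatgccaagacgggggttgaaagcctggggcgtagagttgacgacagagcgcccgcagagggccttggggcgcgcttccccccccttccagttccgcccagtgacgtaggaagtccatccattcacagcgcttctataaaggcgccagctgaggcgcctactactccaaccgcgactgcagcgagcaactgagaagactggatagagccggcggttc
Fosb: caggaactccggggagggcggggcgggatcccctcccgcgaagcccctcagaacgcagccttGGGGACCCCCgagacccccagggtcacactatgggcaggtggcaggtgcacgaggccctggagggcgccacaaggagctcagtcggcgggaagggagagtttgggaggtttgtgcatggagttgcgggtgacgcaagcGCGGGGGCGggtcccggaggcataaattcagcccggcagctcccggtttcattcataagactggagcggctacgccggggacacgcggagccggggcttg
Fosl2: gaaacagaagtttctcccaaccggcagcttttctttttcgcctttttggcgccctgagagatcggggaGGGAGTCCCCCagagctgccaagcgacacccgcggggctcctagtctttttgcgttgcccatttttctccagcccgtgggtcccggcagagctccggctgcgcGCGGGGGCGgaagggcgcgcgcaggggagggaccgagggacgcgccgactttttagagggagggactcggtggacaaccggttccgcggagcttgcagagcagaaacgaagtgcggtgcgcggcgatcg
The Fosb window held an EGR match whose first base is 50 bases before the start and an NF-kB match 188 bases before it. The Fosl2 window held an EGR match 79 bases before the start and a pair of overlapping NF-kB matches, 1 on each strand, and the Fos window held 1 NF-kB match, 214 bases before the start. Of all 32851 promoter windows, 5.55% held an EGR match and 4.51% an NF-kB match. The TRE, found in 7.81% of all windows, the CRE, in 1.79%, and the CArG box, in 1.63%, were not found in any of the 8 windows. No motif was found in the windows of Jun, Junb, Jund, Batf and Atf3. The start used by RefSeq lay 671 bases from the outermost GENCODE start for Fosl2 and 6 bases from it for Fosb, and both sources gave the same start for Fos and Jun. It lay 30 bases away for Junb, 51 for Batf, 1210 for Jund and 34706 for Atf3, so the windows of Fosl2, Jund and Atf3 do not cover the outermost start. A match of letters is not a bound site, and a window without a match says only that these letters are not in it.

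Each library held about 20100000 to 24500000 fragments, as read from the steps between low FPKM values, and libraries of 1 group correlated with r of 0.990 to 0.993 over genes. Nlrp3 was at 0 FPKM in all 6 Nlrp3-/- libraries and at 9.24 to 33.6 FPKM in the wild-type ones. The groups also differed beyond this gene: Xist reached 32.8 to 56.3 FPKM in Nlrp3-/- cells and no more than 0.0416 FPKM in wild-type ones, and the Y-linked Ddx3y showed the opposite, so that sex and genotype cannot be told apart. Nnt, a gene disrupted in some C57BL/6 substrains, was at 4.09 to 10.3 FPKM in the wild-type and 0.670 to 1.47 FPKM in Nlrp3-/- libraries, so that substrain and genotype cannot be told apart either. The summed level of 8 macrophage markers, none at 0, was 19863 to 21106 FPKM in wild-type control and 11697 to 11782 FPKM in wild-type LPS+ATP libraries. In Nlrp3-/- libraries it was 18965 to 19247 FPKM in control and 11070 to 11295 FPKM with LPS+ATP. Lyz2 made up most of this sum, with means of 18464 and 9471 FPKM in wild-type control and LPS+ATP libraries. Lyz2, Cd68 and Mertk were lower with LPS+ATP in both genotypes, and Adgre1, Fcgr1 and Cd14 were higher. The summed level of 8 fibroblast markers was 163 to 194 FPKM in the wild-type and 928 to 1206 FPKM in Nlrp3-/- libraries. That of 8 neutrophil and granulocyte precursor markers was 251 to 285 FPKM in wild-type control and 312 to 324 FPKM in wild-type LPS+ATP libraries. In Nlrp3-/- libraries it was 1465 to 1509 FPKM in control and 633 to 639 FPKM with LPS+ATP. Of these markers Lcn2 rose with LPS+ATP, from a mean of 9.96 to 218 FPKM in wild-type and from 43.2 to 208 FPKM in Nlrp3-/- BMDMs. The means of all the others were lower with it in both genotypes, such as S100a9, from 160 to 49.9 FPKM and from 862 to 267 FPKM. Dendritic cell markers summed to at most 5.49 FPKM and lymphocyte markers to at most 3.98 FPKM. In such bulk RNA, fewer cells of a type and less RNA per cell cannot be told apart. The labels do not say whether the 3 libraries of a group came from separate mice, so p-values measure only the spread between these libraries.

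In wild-type BMDMs, LPS+ATP raised 5 of the 10 genes: Egr1, Fosl1, Batf, Junb and Fosb. No group was given LPS or ATP alone, so the parts of LPS and of ATP in any change cannot be told apart. A gene was called where the limma test, adjusted over all 12622 genes by the Benjamini-Hochberg method, gave an adjusted p under 0.05 and the log2 fold change was at least 1 in size. The scale is log2(FPKM + 1) throughout, on which weakly expressed genes appear to change less than they did. By this rule 8.25% of all tested genes rose and 11.2% fell, and none of the 10 genes fell. In Nlrp3-/- BMDMs the same 5 genes and Fos rose, 6 of 10, with 6.64% of all tested genes called higher and 8.21% lower. Fosb passed the filter only through its LPS+ATP libraries, so its rise is not independent of its having been tested. The median log2 fold change of the 10 genes was 1.11 in wild-type and 1.37 in Nlrp3-/- BMDMs, beside -0.26 and -0.24 for all tested genes. Scaling the libraries by median ratios moved the median of all genes by 0.25 and 0.23 and turned the share of higher calls from 42.5% to 61.5% in wild-type and from 44.7% to 64.4% in Nlrp3-/- BMDMs. Under it Fos, at 1.10, and Atf3, at 1.11, also passed in wild-type BMDMs, and the direction of Jund in Nlrp3-/- BMDMs turned.

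**Figure D1:**
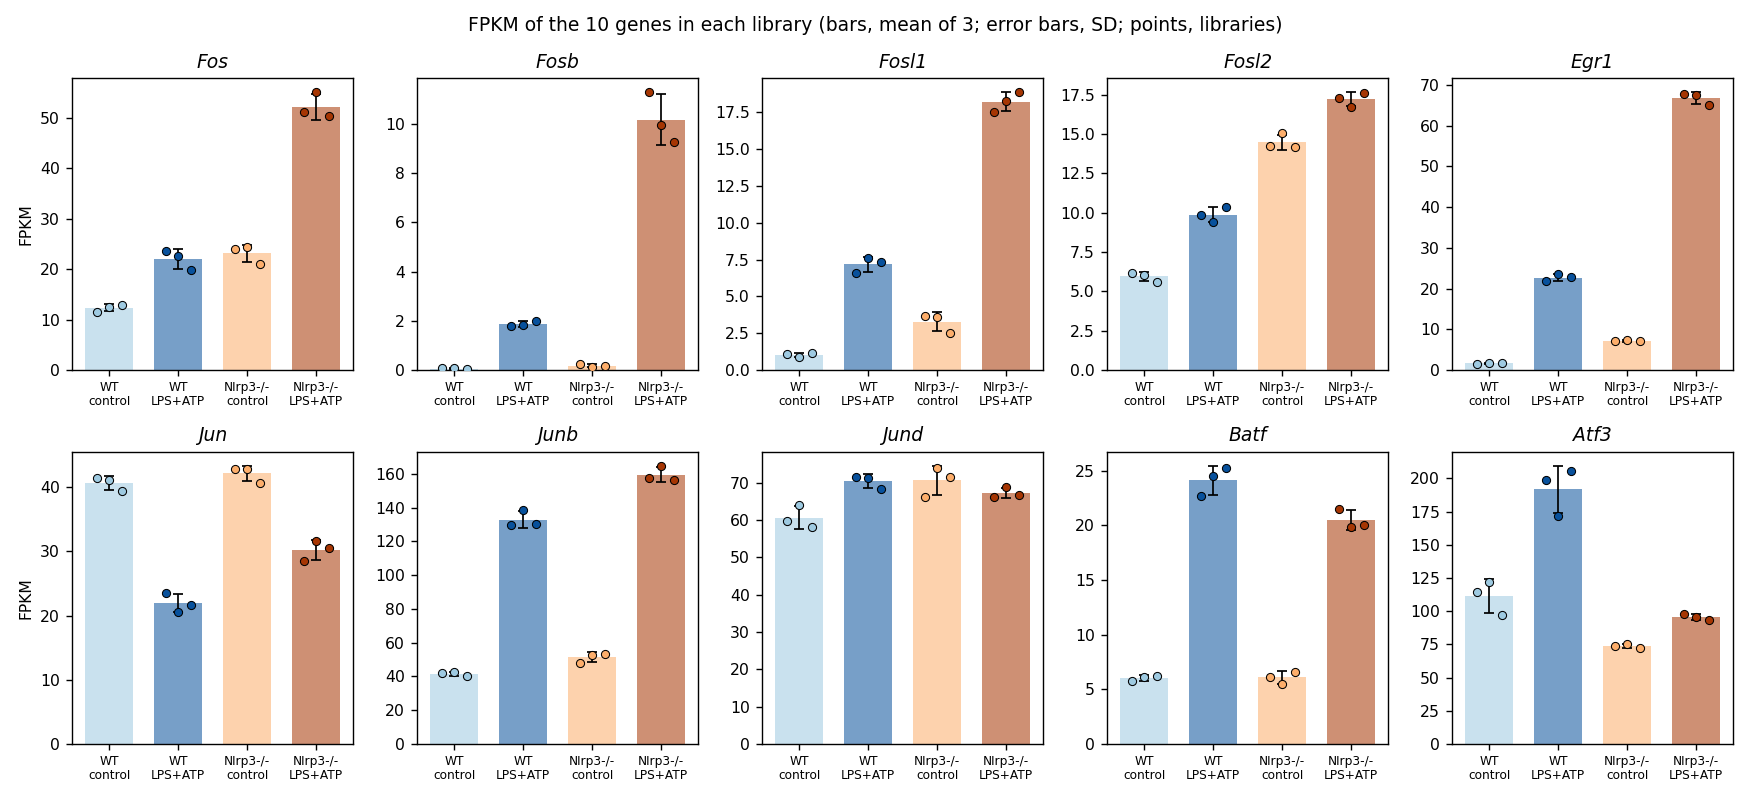
FPKM of each of the 10 genes (y axis, linear, from 0) in the 4 groups (x axis). Bars are means of 3 libraries, error bars are SD and points are libraries. Fos, Fosb, Fosl1, Fosl2, Egr1 and Junb were highest in Nlrp3-/- LPS+ATP libraries, and Atf3 and Batf were highest in wild-type LPS+ATP libraries.

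Fosb was barely detected without stimulation. It was at 0.0747, 0.0763 and 0.0583 FPKM in the 3 wild-type control libraries, about 5 to 7 fragments each, and at 1.79, 1.83 and 2.02 FPKM in the wild-type LPS+ATP libraries. In Nlrp3-/- BMDMs it was at 0.244, 0.126 and 0.172 FPKM without stimulation, about 10 to 19 fragments each, and at 11.3, 9.94 and 9.25 FPKM with it. The groups did not overlap, and the Nlrp3-/- LPS+ATP libraries stood far above all others. The ratio of mean FPKM between stimulated and control libraries was 26.9 in wild-type and 56.2 in Nlrp3-/- BMDMs. The log2 fold change was 1.43 ± 0.07 (SE, adjusted p = 6.4e-09) in wild-type and 3.24 ± 0.07 (adjusted p = 6.6e-12) in Nlrp3-/- BMDMs.

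Egr1, the best known early growth response factor, had the largest log2 fold change of the 10 genes in wild-type BMDMs. It was at 1.61, 1.72 and 1.76 FPKM in wild-type control and at 21.8, 23.5 and 22.8 FPKM in wild-type LPS+ATP libraries. Nlrp3-/- BMDMs had 7.05, 7.32 and 7.16 FPKM without and 67.8, 67.5 and 65.1 FPKM with stimulation. The 4 groups did not overlap, and each Nlrp3-/- group lay above its wild-type counterpart. Its log2 fold change with LPS+ATP was 3.13 ± 0.04 (SE) in wild-type and 3.05 ± 0.04 in Nlrp3-/- BMDMs, larger in size than in 98.6% and 98.8% of the tested genes, and the ratio of mean FPKM was 13.3 and 9.31. For Fosb this ratio was larger, at 26.9 and 56.2.

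Fos, the founding FOS gene, was at 11.6, 12.6 and 12.9 FPKM in wild-type control and at 23.5, 22.7 and 19.9 FPKM in wild-type LPS+ATP libraries. Without NLRP3 it was at 24.0, 24.3 and 21.1 FPKM without stimulation and at 51.2, 55.1 and 50.3 FPKM with it. The unstimulated Nlrp3-/- libraries overlapped with the stimulated wild-type ones, and the stimulated Nlrp3-/- libraries lay above both. With LPS+ATP, Fos rose by 1.14 ± 0.07 (SE) in Nlrp3-/- BMDMs on the log2 scale. The wild-type value, 0.78 ± 0.07 (adjusted p = 1.5e-06), was under the fold limit.

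Fosl1, which encodes FRA-1, was at 1.08, 0.903 and 1.14 FPKM in wild-type control and at 6.57, 7.60 and 7.34 FPKM in wild-type LPS+ATP libraries. The Nlrp3-/- libraries were at 3.69, 3.62 and 2.53 FPKM without and at 17.5, 18.3 and 18.8 FPKM with stimulation. The 4 groups did not overlap. Its log2 fold change with LPS+ATP was 2.00 ± 0.10 (SE) in wild-type and 2.18 ± 0.10 in Nlrp3-/- BMDMs. Fosl1 shares 1056 bases of its longest annotated transcript, 1864 bases long, with Ccdc85b on the opposite strand, and whether the counting used strand is not given. Ccdc85b was at 2.00 to 3.17 FPKM in the wild-type and 4.02 to 4.70 FPKM in Nlrp3-/- libraries, higher with genotype but not with stimulation, and its part in the Fosl1 values was not tested.

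Fosl2, which encodes FRA-2, followed genotype more than stimulation. It was at 6.15, 6.07 and 5.63 FPKM in wild-type control and at 9.83, 9.41 and 10.4 FPKM in wild-type LPS+ATP libraries. Its Nlrp3-/- values were 14.3, 15.0 and 14.2 FPKM without and 17.3, 16.7 and 17.6 FPKM with stimulation. Every Nlrp3-/- library was above every wild-type library, whether stimulated or not. The log2 fold change with LPS+ATP, 0.64 ± 0.05 (SE) in wild-type and 0.23 ± 0.05 in Nlrp3-/- BMDMs, was under the fold limit in both, with adjusted p of 1.8e-07 and 0.00084.

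The 3 JUN genes went different ways. Junb rose from 40.2 to 42.6 FPKM in wild-type control to 130.0 to 138.8 FPKM in LPS+ATP libraries, and from 48.1 to 53.5 FPKM to 156.3 to 164.9 FPKM in Nlrp3-/- BMDMs. Its log2 fold change was 1.65 ± 0.05 (SE) in wild-type and 1.61 ± 0.05 in Nlrp3-/- BMDMs, and no groups overlapped. Jun was at 39.4 to 41.5 FPKM in wild-type control and 20.6 to 23.4 FPKM in LPS+ATP libraries, a log2 fold change of -0.86 ± 0.05 (adjusted p = 2.8e-08) that did not reach the fold limit. In Nlrp3-/- BMDMs Jun was at 40.7 to 42.8 FPKM without and 28.5 to 31.6 FPKM with stimulation, a log2 fold change of -0.47 ± 0.05 (adjusted p = 7.3e-06). The control groups of Jun overlapped, and the stimulated groups were below them and apart from each other. Jund stayed between 58.1 and 74.0 FPKM in all 12 libraries. Its log2 fold change was 0.21 ± 0.05 (adjusted p = 0.0014) in wild-type and -0.07 ± 0.05 (adjusted p = 0.21) in Nlrp3-/- BMDMs, and the second turned to 0.22 under median-ratio scaling. Junb overlaps Prdx2 on the opposite strand, which was at 31.9 to 36.6 FPKM in all libraries, and the antisense partners of Jun and Jund, Junos and Gm11175, were at most at 1.27 FPKM.

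Batf, a JUN partner known from lymphocytes and dendritic cells, rose with LPS+ATP in both genotypes. It was at 5.75 to 6.23 FPKM in wild-type control and 22.7 to 25.2 FPKM in wild-type LPS+ATP libraries, a log2 fold change of 1.83 ± 0.07 (SE). In Nlrp3-/- BMDMs it went from 5.45 to 6.63 FPKM to 19.9 to 21.5 FPKM, a log2 fold change of 1.60 ± 0.07. The control groups overlapped and the stimulated groups did not.

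Atf3 was the most abundant of the 10 transcripts in wild-type BMDMs. It was at 114.6, 122.3 and 97.2 FPKM in wild-type control libraries, above 97.5% of the tested genes in mean level, and at 198.6, 171.6 and 205.2 FPKM in wild-type LPS+ATP libraries. In Nlrp3-/- BMDMs it was at 73.7, 75.0 and 72.2 FPKM without and at 98.2, 95.7 and 93.2 FPKM with stimulation. The stimulated Nlrp3-/- libraries overlapped with the unstimulated wild-type ones. The log2 fold change with LPS+ATP, 0.78 ± 0.08 (SE, adjusted p = 4.0e-06) in wild-type and 0.37 ± 0.08 (adjusted p = 0.0015) in Nlrp3-/- BMDMs, was under the fold limit in both.

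Comparing genotypes within each treatment asks how the loss of NLRP3 goes along with the level of these factors. Without stimulation, 3 of the 10 genes were higher in Nlrp3-/- than in wild-type BMDMs, Egr1, Fosl2 and Fosl1, with 6.02% of all tested genes called higher and 0.689% lower. With LPS+ATP, 4 of the 10 were higher, Fosb, Egr1, Fosl1 and Fos, with 4.48% of all tested genes called higher and 0.57% lower. None of the 10 was called lower in either. The median log2 fold change of the 10 genes was 0.26 without and 0.60 with stimulation, beside 0.09 and 0.11 for all tested genes. Median-ratio scaling moved the median of all genes by -0.12 and -0.15 in these comparisons. The fibroblast, granulocyte and sex-linked transcripts and Nnt, given above, moved with the same contrast, and their part in these differences was not tested.

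For Egr1, the log2 fold change of Nlrp3-/- over wild-type BMDMs was 1.60 ± 0.04 (SE, adjusted p = 8.0e-11) without and 1.52 ± 0.04 (adjusted p = 2.2e-10) with stimulation, mean ratios of 4.22 and 2.95. For Fosb it was 0.14 ± 0.07 (adjusted p = 0.13) without and 1.95 ± 0.07 (adjusted p = 2.8e-09) with stimulation. The unstimulated groups of Fosb did not overlap and had a mean ratio of 2.59, which rests on about 5 to 19 fragments a library. The unstimulated value was larger with a smaller pseudocount, at 0.71 (adjusted p = 0.0032) with 0.1, under the fold limit, and 1.22 (adjusted p = 0.00084) with 0.01, past it. The stimulated groups had a mean ratio of 5.41, and their log2 fold change was larger in size than in 99.5% of the tested genes. For Fos it was 0.85 ± 0.07 (adjusted p = 1.9e-06), under the fold limit, without and 1.21 ± 0.07 with stimulation. Fosl2 was higher by 1.16 ± 0.05 without stimulation and by 0.75 ± 0.05 (adjusted p = 1.9e-07), under the fold limit, with it. Fosl1 was higher by 1.06 ± 0.10 without stimulation, close to the fold limit, and by 1.235 ± 0.10 with it. The first value was 0.92 under median-ratio scaling, 0.985 without Nlrp3-/- control replicate 1 and 0.997 without Nlrp3-/- control replicate 2, each under the limit.

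Of the remaining genes, Atf3 was the one with lower levels in Nlrp3-/- BMDMs in both treatments. Its log2 fold change was -0.58 ± 0.08 (SE, adjusted p = 0.00011) without and -0.99 ± 0.08 (adjusted p = 1.6e-06) with stimulation, and the stimulated groups had a mean ratio of 0.499. The second value passed the fold limit at -1.18 under median-ratio scaling, at -1.07 without wild-type LPS+ATP replicate 2 and at -1.01 without Nlrp3-/- LPS+ATP replicate 1. Junb differed by 0.30 ± 0.05 and 0.26 ± 0.05, and Jun by 0.05 ± 0.05 (adjusted p = 0.46) and 0.45 ± 0.05. Jund differed by 0.22 ± 0.05 and -0.06 ± 0.05 (adjusted p = 0.29), and Batf by 0.00 ± 0.07 (adjusted p = 0.97) and -0.23 ± 0.07. The unstimulated differences of Jun and Batf turned negative under median-ratio scaling, at -0.10 and -0.13.

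**Figure D2:**
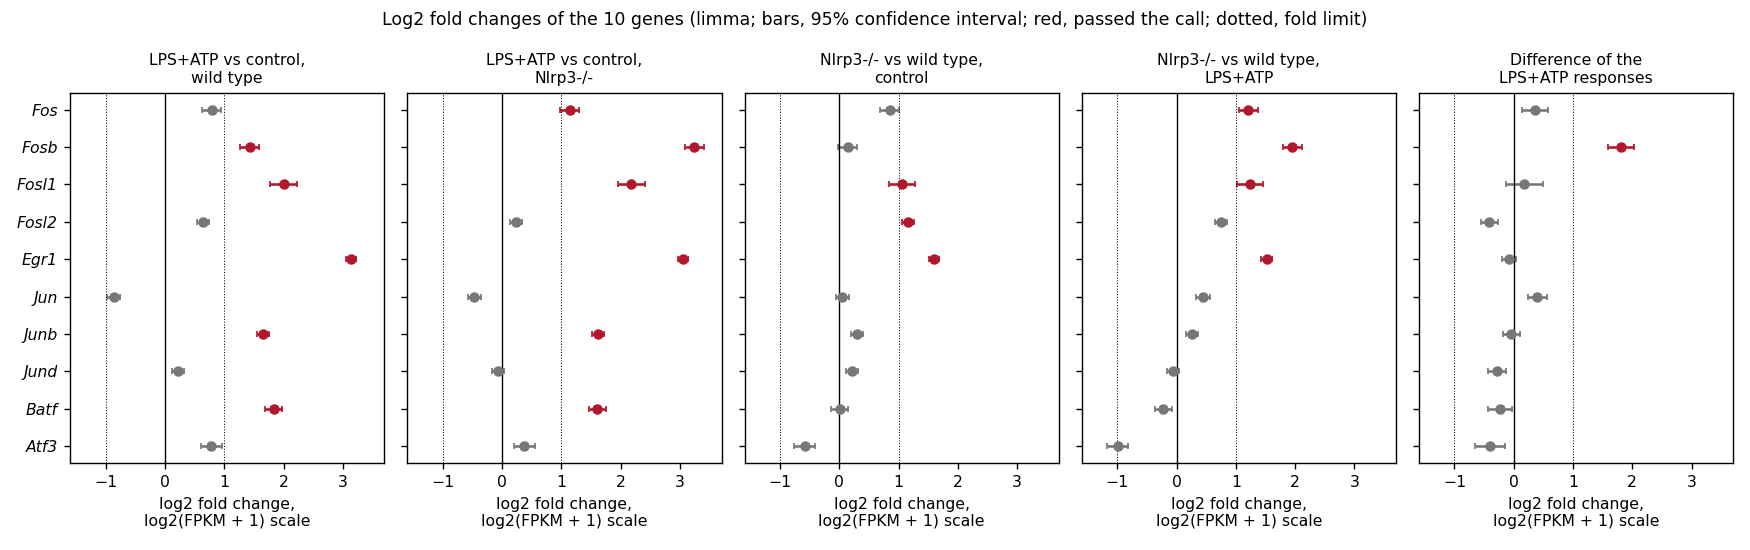
Log2 fold change of each gene (x axis, log2(FPKM + 1) scale) in the 4 comparisons and in the difference between the 2 LPS+ATP responses, with 95% confidence intervals from limma. Red points passed the call and dotted lines mark the fold limit of 1. Fosb alone passed in the difference of responses, at 1.81.

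Whether stimulation acted differently in the 2 genotypes was tested as the interaction, the log2 fold change with LPS+ATP in Nlrp3-/- minus that in wild-type BMDMs. Fosb was the 1 gene of 10 called, at 1.81 ± 0.10 (SE, adjusted p = 5.2e-07), with 0.721% of all tested genes called higher and 1.43% lower. The size of this value depended on the pseudocount, 1 here: it was 1.67 at 0.1 and 1.21 (adjusted p = 0.016) at 0.01. The mean FPKM ratios of 26.9 and 56.2 given above differed by 2.09-fold, 1.06 on the log2 scale, and the lower of them rests on wild-type control libraries of about 5 to 7 fragments each. Fosb was tested only because its LPS+ATP libraries passed the filter, so its call here is not independent of the filter. For 5 genes the adjusted p was under 0.05 with a difference smaller than the fold limit, as it was for 27.7% of all tested genes whatever the size. Jun was at 0.40 ± 0.07 and Fos at 0.36 ± 0.10, and Fosl2 was at -0.41 ± 0.07, Atf3 at -0.41 ± 0.11 and Jund at -0.28 ± 0.07. The interval of the difference ran from -0.18 to 0.10 for Junb, from -0.43 to -0.03 for Batf (adjusted p = 0.091) and from -0.14 to 0.49 for Fosl1. For Egr1 it ran from -0.20 to 0.04 (adjusted p = 0.33) with a pseudocount of 1, but with a pseudocount of 0.1 the difference was -0.46 (adjusted p = 0.00037) and with 0.01 it was -0.51 (adjusted p = 0.00020), so the side of 0.05 on which its adjusted p fell depended on the pseudocount, while all 3 differences were under the fold limit.

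The make-up of the AP-1 transcripts is given as a description, each gene as a share of the summed FPKM of the FOS, JUN and BATF genes in a library, with no test. The summed FPKM was 164 to 174 in wild-type control, 285 to 297 in wild-type LPS+ATP, 205 to 218 in Nlrp3-/- control and 369 to 385 in Nlrp3-/- LPS+ATP libraries. JUN genes made up most of it in every library. The FOS genes held 11.5% ± 0.4 (SD, n = 3) in wild-type control, 14.1% ± 0.3 in wild-type LPS+ATP, 19.4% ± 1.3 in Nlrp3-/- control and 26.1% ± 0.1 in Nlrp3-/- LPS+ATP libraries, and these ranges did not overlap. The largest share passed from Jund without stimulation, 36.0% in wild-type and 33.4% in Nlrp3-/- BMDMs, to Junb with it, 45.8% and 42.5%. Jun held 24.2% and 19.9% without stimulation and 7.55% and 8.04% with it. Within the FOS genes, Fosl1 and Fosb together were minor without stimulation, whereas in Nlrp3-/- LPS+ATP libraries Fosl1 held 4.85% and Fosb 2.71% of the sum. Batf held 8.31% in wild-type LPS+ATP and 5.46% in Nlrp3-/- LPS+ATP libraries. These are shares of transcripts, and the proteins were not measured here.

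**Figure D3:**
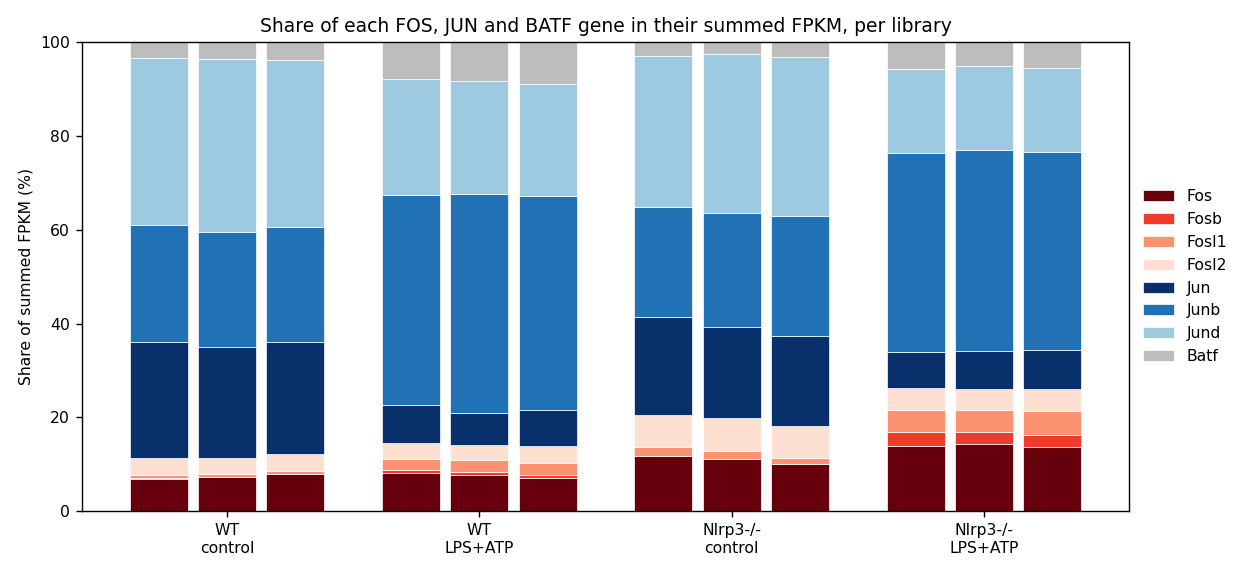
Share of each gene (y axis, percent) in the summed FPKM of the FOS, JUN and BATF genes, 1 bar per library, grouped by genotype and treatment (x axis). The FOS genes, in reds, took 26.1% on average in Nlrp3-/- LPS+ATP libraries against 11.5% in wild-type control libraries, and Junb took the largest share in all stimulated libraries.

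Of 18 genes known as targets of AP-1 or EGR1, many of which also respond to NF-kB, 11 rose and 1 fell with LPS+ATP in wild-type BMDMs, and 11 rose in Nlrp3-/- BMDMs. Their median log2 fold change was 2.37 and 2.00, beside -0.26 and -0.24 for all tested genes. Of all tested genes, 8.25% rose and 11.2% fell in wild-type, and 6.64% rose and 8.21% fell in Nlrp3-/- BMDMs. Il1b, the precursor of the cytokine released by inflammasomes, went from a mean of 0.239 to 1386 FPKM in the wild-type and from 1.46 to 995 FPKM in Nlrp3-/- BMDMs. Ptgs2, the inducible cyclooxygenase, went from 0.327 to 245 FPKM and from 2.49 to 166 FPKM, and Tnf from 7.49 to 572 FPKM and from 11.5 to 422 FPKM. Without stimulation 5 of the 18 were higher in Nlrp3-/- BMDMs, among them Ptgs2 at a log2 fold change of 1.40, and with LPS+ATP 1 was. The shares of all tested genes called higher were 6.02% and 4.48%. In the interaction 3 of the 18 were called lower and none higher, beside 1.43% and 0.721% of all tested genes. Among the 3 were Ptgs2 at -1.96 and Il1b at -1.46. The wild-type control levels of both were under the pseudocount of 1, so the size of these values depends on the pseudocount. Fosb and Egr1 were higher in stimulated Nlrp3-/- than in stimulated wild-type BMDMs. In the same comparison the 18 target genes had a median log2 fold change of -0.13, beside 0.11 for all tested genes. Of the 18, 1 was called higher and none lower, beside 4.48% and 0.57% of all tested genes. Il1b, Ptgs2 and Tnf, named for the size of their change with stimulation, differed by -0.48, -0.56 and -0.44, all under the fold limit. Mmp9, Mmp13, F3, Plau, Trib3, Asns, Chac1, Ier2, Klf4 and Klf10 are named after their values were seen. The genes higher without stimulation included Mmp9, Ptgs2, Mmp13 and F3, the gene higher with LPS+ATP was Mmp9, and the gene that fell in wild-type BMDMs was Plau.

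Of 11 stress genes linked to ATF3, as partners in the same response or as targets that it represses, 10 rose in wild-type and 5 in Nlrp3-/- BMDMs, with median log2 fold changes of 1.63 and 0.65. The shares of all tested genes that rose were 8.25% and 6.64%. Il12b, a cytokine subunit gene that ATF3 is known to repress, went from 0.113 to 36.9 FPKM in the wild-type and from 0.771 to 12.03 FPKM in Nlrp3-/- BMDMs. It was the 1 gene of the list called lower in stimulated Nlrp3-/- BMDMs, at -1.54, beside 0.57% of all tested genes. Ch25h, the cholesterol 25-hydroxylase, went from 1.02 to 46.4 FPKM and from 3.16 to 51.9 FPKM, and Cebpb from 73.4 to 394 FPKM and from 103 to 319 FPKM. Without stimulation 4 of the 11 were higher in Nlrp3-/- than in wild-type BMDMs, Trib3 at 1.87, Chac1 at 1.79, Asns at 1.56 and Ch25h at 1.04, whereas Atf3 itself was not. The share of all tested genes called higher there was 6.02%. In the interaction 3 of the 11 were called lower, Il12b at -2.21, Asns at -1.32 and Trib3 at -1.17, beside 1.43% of all tested genes. The wild-type control level of Il12b was far under the pseudocount of 1, so the size of its value depends on the pseudocount. Of 9 heat shock genes, 6 rose in wild-type and 3 in Nlrp3-/- BMDMs, beside 8.25% and 6.64% of all tested genes. Hspa1a was at a mean of 155 FPKM in the wild-type and 45.1 FPKM in Nlrp3-/- LPS+ATP libraries, and Hspa1b at 153 and 52.4 FPKM. These near-identical copies share reads, so the split between them is uncertain. Their interactions were -2.19 and -2.22, and Hsph1, the third of the genes that rose in both, was at -0.90. The summed level of the 9 genes was 365 to 470 FPKM in wild-type control, 1381 to 1432 FPKM in wild-type LPS+ATP, 445 to 533 FPKM in Nlrp3-/- control and 928 to 949 FPKM in Nlrp3-/- LPS+ATP libraries. Like Atf3 and Batf, and unlike the FOS genes, Junb and Egr1, it was highest in wild-type LPS+ATP libraries.

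**Figure D4:**
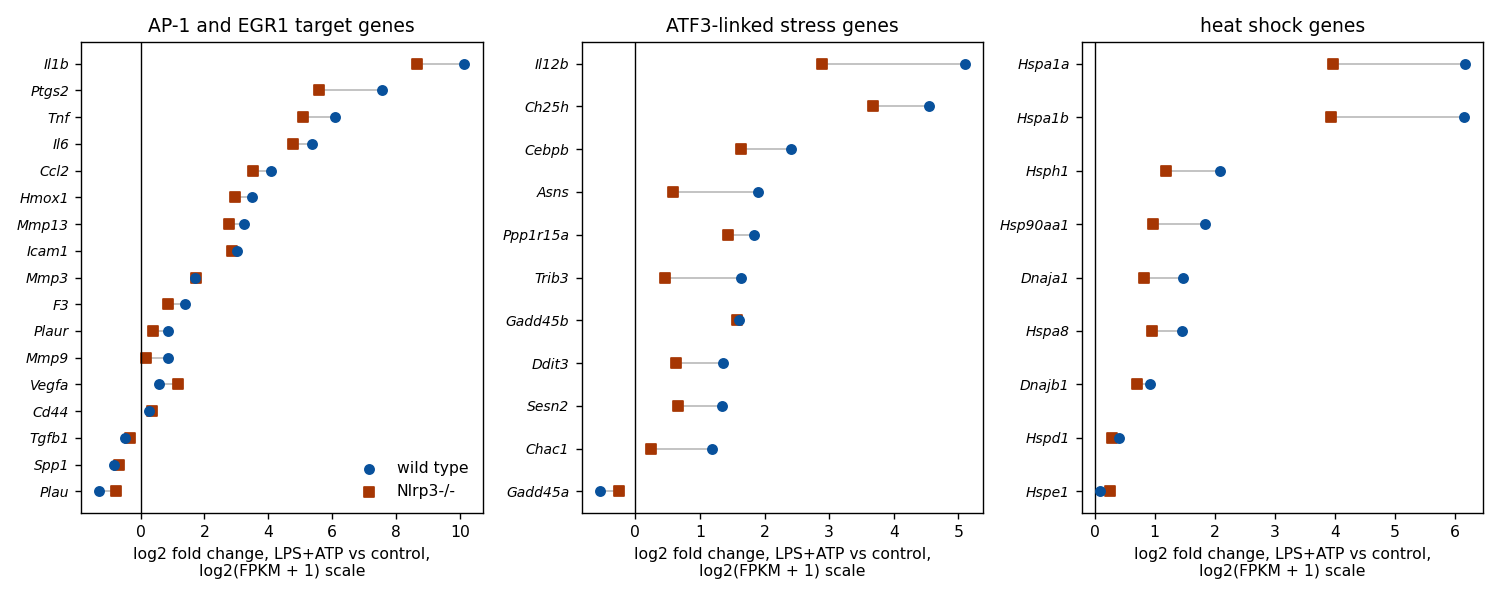
Log2 fold change with LPS+ATP (x axis, log2(FPKM + 1) scale) of genes of 3 lists (y axis), in wild-type (blue circles) and Nlrp3-/- BMDMs (brown squares). The grey lines join the 2 values of a gene, and Il12b, Ptgs2, Hspa1a and Hspa1b lay farther right in wild-type BMDMs.

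Of 12 tested genes of other immediate early factors, 1 rose and 2 fell in wild-type BMDMs, beside 8.25% and 11.2% of all tested genes. In Nlrp3-/- BMDMs 3 rose and 1 fell, beside 6.64% and 8.21%. With so few genes, these counts say little about the class. Nr4a1, an orphan nuclear receptor of the same early class, was the 1 of the 12 called in the interaction, at 1.42 ± 0.13 (SE, adjusted p = 1.6e-05). Of all tested genes, 0.721% were called higher there. Nr4a1 was at a mean of 2.25 and 5.09 FPKM in the wild-type and 2.49 and 16.6 FPKM in Nlrp3-/- control and LPS+ATP libraries. Ier3, an early response gene of NF-kB, rose in both genotypes, with log2 fold changes of 3.32 and 2.76. Klf2, which restrains macrophage activation, fell by 1.66 in wild-type BMDMs and was higher in stimulated Nlrp3-/- than wild-type BMDMs, at 1.16. The other genes called were Klf10, which fell in both genotypes, Ier2, which rose in Nlrp3-/- BMDMs and was higher there under stimulation, and Klf4, which was higher in Nlrp3-/- BMDMs without it.

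The genes whose pattern over the 12 libraries was most like each of the 10 were listed by Pearson's r of log2(FPKM + 1), a description in which the 4 groups set most of the value. For Fosb they were Glp2r, Unc93a and Nr4a1, with r of 0.993 to 0.996. For Fosl1 they were Egr1, Ms4a4d and Ppa1, with r of 0.993 to 0.994, and for Egr1 they were Stip1, Spic and Phlda1, with r of 0.996 to 0.998. For Fos they were Wnt5a, Gm2115 and Fstl3, and for Fosl2 Pdlim7, Slc38a2 and Plod2, with r of at least 0.987 in these 2 groups of genes. For Junb they were Cxcl3, Gpr84 and Dram1, and for Batf Fcgr4, Parp10 and Rhbdf2, with r of at least 0.997. For Jun they were Thrap3, Ivns1abp and Soga1, with r of 0.993 to 0.994. For Atf3 they were Cd53, Ptk2b and G6pdx, with r of 0.974 to 0.978. For Jund the highest r was 0.889, with Dhx29, followed by Ppp2ca and Zranb2. Egr1 and Fosl1 were thus the one pair of the 10 in which a member was among the nearest genes of another.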

How the data were processed

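RNA-seq was measured in 12 mouse BMDM libraries (total RNA, TruSeq kit per the labels), 3 in each of 4 groups taken from the labels. The authors deposited FPKM values of 55335 genes in 1 table, in which every per-sample column was used (0 left out). The submitters' processing notes name GRCm39 and DESeq2 1.24.0 without giving their role. The aligner, the counting, its strand setting and the annotation are not given in the sources used here. FPKM divides by transcript length and library size, so a few very abundant transcripts lower all others. No counts were used. Fragment numbers were read from the steps of FPKM times length in genes with 1 transcript.

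From the deposited FPKM, log2(FPKM + 1) was fitted with limma 3.58.1 in R 4.3.3 (4 group means, all 12 libraries, variance trend), after the filter of at least 1 FPKM in at least 3 libraries. p-values were adjusted by Benjamini-Hochberg over the 12622 genes tested, and calls were made at an adjusted p below 0.05 with fold changes of 1 or more in size on the log2 scale. The study names no test for these libraries. Tested on simulated data for the stimulation of wild-type BMDMs, 194 of 200 genes given a log2 change of 1.5 were recovered. The members and gene lists were chosen with earlier results of these data known. Of each other list, up to 3 called genes with the largest log2 fold change are named, and for each member the 3 genes with the highest r. Some genes of the lists are counted but not reported here by name. Gene positions and overlaps come from GENCODE M21 (GRCm38) and promoters from RefSeq (GRCm38.p6), another build than GRCm39. By blastn 2.17.0, no member had a near copy (95% identity over 20% of its longest transcript) outside genes that overlap it. Alternatives tried were the pseudocount (0.1, and 0.01 added after seeing the data), filters, fold limit, scaling (TPM, median ratios, upper quartiles), the replicate block, no variance trend, the compared groups alone, and leaving out each library.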

Additional observations from a re-analysis of the deposited data

Results flagged for a closer look

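For 6 of the 10 genes the change with LPS+ATP differed between the genotypes by the interaction test of limma, at an adjusted p under 0.05, a level that 27.7% of all tested genes also reached. The value is the log2 fold change in Nlrp3-/- minus that in wild-type BMDMs. It was 1.81 for Fosb (adjusted p = 5.2e-07; 1.21 with a pseudocount of 0.01), 0.40 for Jun (adjusted p = 0.0020) and 0.36 for Fos (adjusted p = 0.024), where stimulated Nlrp3-/- libraries were higher relative to their controls. It was -0.41 for Fosl2 (adjusted p = 0.00090), -0.41 for Atf3 (adjusted p = 0.021) and -0.28 for Jund (adjusted p = 0.0087), where they were lower. Fosb was the 1 of these past the fold limit, and it passed the filter only through its LPS+ATP libraries. Over all alternatives the adjusted p of Fos reached 0.058 and that of Atf3 0.056, without a filter on low values or without single libraries (wild-type control replicates 2 and 3, Nlrp3-/- control replicate 3 and Nlrp3-/- LPS+ATP replicate 2 for Fos, wild-type LPS+ATP replicates 1 and 3 for Atf3), while their directions held.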

How the results depend on the processing

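The numbers of genes called, 5 and 6 of 10 with LPS+ATP in wild-type and Nlrp3-/- BMDMs, 3 and 4 between genotypes without and with stimulation and 1 in the interaction, were also 5, 6, 3, 4 and 1 with the replicate block. No pairing of the libraries by replicate number was seen: deviations of 18 same-numbered pairs correlated with r of -0.057 to 0.053, 0 of them over 0.1. A weak pairing could be missed by this check. Without the fold limit the numbers were 10, 9, 7, 9 and 6, beside 76.4%, 74.3%, 47.8%, 48.5% and 27.7% of all tested genes. Median-ratio scaling gave 7, 6, 2, 5 and 1. Directions turned for Jund with stimulation in Nlrp3-/- BMDMs (0.058 with upper-quartile and 0.22 with median-ratio scaling) and, between unstimulated genotypes, for Jun (-0.021 and -0.10) and Batf (-0.058 and -0.13). Batf there ran from -0.052 to 0.070 when single libraries were left out. The interaction of Fosl1 turned to -0.22 with a pseudocount of 0.1, to -0.29 with 0.01 and to -0.075 with TPM. The pseudocount of 0.01 was added after seeing the data. It gave 5, 6, 4, 4 and 1 genes, Fosb between unstimulated genotypes being the one gained. Fosl1 between unstimulated genotypes fell under the fold limit in 4 alternatives, and Atf3 between stimulated genotypes passed it in 4, not counting the one without the limit. The causes were not tested. Without Batf in the sum, the FOS share in LPS+ATP libraries was 15.4% in wild-type and 27.6% in Nlrp3-/- BMDMs. Low depth limits Fosb in control libraries, at 5 to 19 fragments each.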

Other observations

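Of 22 tested genes of the MAP kinase cascade, which lies upstream of these factors, 3 rose and 2 fell with LPS+ATP in wild-type BMDMs. In Nlrp3-/- BMDMs 2 rose and 1 fell. Of all tested genes, 8.25% rose and 11.2% fell in wild-type, and 6.64% rose and 8.21% fell in Nlrp3-/- BMDMs. None of the 22 was called between genotypes by limma. There, 6.02% of all tested genes were called higher and 0.689% lower without stimulation, and 4.48% and 0.57% with it. At such shares few calls would fall among 22 genes, so their absence says little about the cascade. Map2k1, which encodes MEK1, went from a mean of 35.9 to 105 FPKM in wild-type and from 42.0 to 102 FPKM in Nlrp3-/- BMDMs. Mapkapk2, the kinase downstream of p38, went from 90.7 to 210 FPKM and from 84.5 to 215 FPKM, and Map3k1 fell from 13.9 to 2.66 FPKM and from 10.6 to 2.86 FPKM. Of 6 genes of the serum response factor and its partners, Mrtfa fell in wild-type BMDMs, by 1.04 on the log2 scale, and none was called in the other comparisons. The shares of all tested genes are those above, and in the interaction 0.721% were called higher and 1.43% lower. With 6 genes, these counts say little about the list. Map3k5 also rose and Mapk3 also fell in wild-type BMDMs, at 1.05 and -1.14, both named after their values were seen. Kinase activity was not measured by these libraries.

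Among 11 tested genes of other basic leucine zipper factors, 3 rose and 2 fell in wild-type BMDMs, and 2 rose and 2 fell in Nlrp3-/- BMDMs. Of all tested genes, 8.25% rose and 11.2% fell in wild-type, and 6.64% rose and 8.21% fell in Nlrp3-/- BMDMs. Batf2 rose from a mean of 1.11 to 9.77 FPKM in wild-type and from 0.734 to 8.43 FPKM in Nlrp3-/- BMDMs. Maf, which keeps macrophages differentiated, fell in both, from 43.9 to 7.58 FPKM and from 32.0 to 8.50 FPKM. Chosen after their values were seen, the others called were Atf4, which rose in wild-type BMDMs at 1.61, Maff, which rose in both genotypes at 2.35 and 1.39, and Jdp2, which with Maff was higher in unstimulated Nlrp3-/- BMDMs, at 1.20 and 1.00.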
